A study of Mus musculus with 6 samples.

Results

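The 8 genes described here encode the liver enzymes that turn lanosterol into cholesterol: Cyp51, Tm7sf2, Msmo1, Nsdhl, Hsd17b7, Ebp, Sc5d and Dhcr7. They were chosen by name, with earlier results of these data known. Every probe set that the platform annotation gives to 1 of these symbols was taken. This made 8 of 18193 annotated genes and 16 of the 45101 probe sets on the array. The gene Dbi encodes ACBP, an acyl-CoA binding protein, and livers were taken at 21 days of age from knockout mice without it and from wild-type mice, all labelled as strain C57BL/6JBomTac and fed until they were taken from the mother. Each genotype had 3 arrays, each hybridised with RNA pooled in equal amounts from 5 mice, so 15 mice stood behind each genotype, and the p-values measure only the spread between such pools. The labels give ACBP-/- and +/+ as genotypes and how the allele was made is not given there.

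Lanosterol is the first sterol ring structure of the pathway, and it becomes cholesterol by losing methyl groups and by having its double bonds moved and reduced, on the membrane of the endoplasmic reticulum. The liver is a main site of this synthesis. Genes of the pathway are known targets of SREBP-2, the product of Srebf2, a membrane-bound transcription factor that is released for the nucleus when membrane sterol is low. ACBP binds long-chain acyl-CoA esters in the cytosol.

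The knockout was visible at Dbi. Its brightest probe set had log2 signals of 15.94, 15.74 and 15.77 in wild-type pools and of 5.37, 5.32 and 5.15 in knockout pools, a change of -10.54 (SE 0.08, limma adjusted p = 2.27e-22), and it was called Present in 1 of 3 knockout pools and Absent in the others. The other 3 Dbi probe sets, all of the _x_at kind, which may also bind similar transcripts, were Present in all 3 knockout pools at means of 8.42, 7.81 and 8.31, with changes from -4.08 to -3.91. Between 48.4% and 51.1% of probe sets were called Present on an array, that is, detected above mismatch background. All 9 tested hepatocyte markers, Alb and Ttr among them, were detected on every array and 0 were called changed, with a median log2 fold change of -0.00. Actin control probes at the 3′ end were 2.18 to 2.19 times as bright as those at the 5′ end in wild type and 2.34 to 2.35 times in knockout, a measure of RNA integrity, and for Gapdh this ratio lay between 0.87 and 0.92 on every array. The summed linear signal of the tested sinusoidal endothelial markers ran from 6025 to 6151 in wild type and from 5337 to 5485 in knockout, with 2 of 8 lower, and that of the stellate cell and fibroblast markers from 9752 to 9906 and from 8544 to 9269, with 3 of 7 lower. Of 4 tested neutrophil markers 2 were higher, and their sum ran from 348.4 to 391.0 in wild type and from 433.9 to 514.1 in knockout. Of 8 Kupffer cell markers 1 was lower, and 0 of 2 tested cholangiocyte and 0 of 2 tested erythroid markers were called. The part of RNA integrity and of these cell markers in the results was not tested, and in bulk tissue fewer cells of a type and less RNA per cell cannot be told apart.

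All 8 enzymes had less transcript in knockout liver. Each was called lower by limma at an adjusted p below 0.05, against 3.87% of the 10908 genes tested. Since the enzymes were chosen with earlier results of these data known, the shares given beside their counts are a description and no test. In each, all 3 knockout pools lay below all 3 wild-type pools, as was so for 12.6% of tested genes. By probe set this held for all 15 tested, against 10.8% of the 22482 tested, and for 1 untested probe set of Cyp51. Probe sets of 1 gene are not independent. A dim one of Msmo1 passed the detection filter only through its wild-type calls. The median log2 fold change, knockout minus wild type, was -2.12 for the 8 enzymes and 0.02 for all tested genes. Of the 106 genes called lower by at least 2-fold, 7 were among the 8, and of the 7 called lower by at least 10-fold, 3 were: Cyp51, Msmo1 and Nsdhl. In all, 1277 probe sets (5.68%) were called, 675 of them lower and 602 (2.68%) higher. With each array centred on its median 480 of 1361 were lower, and with quantile normalization 882 of 1669. By gene, 3.29% were called higher, and 0 of the 8 enzymes was. That total of 1277 became 639 when wild-type pool 1 was left out and 3010 when knockout pool 3 was, and the 8 enzymes were called lower in both fits.

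**Figure D1:**
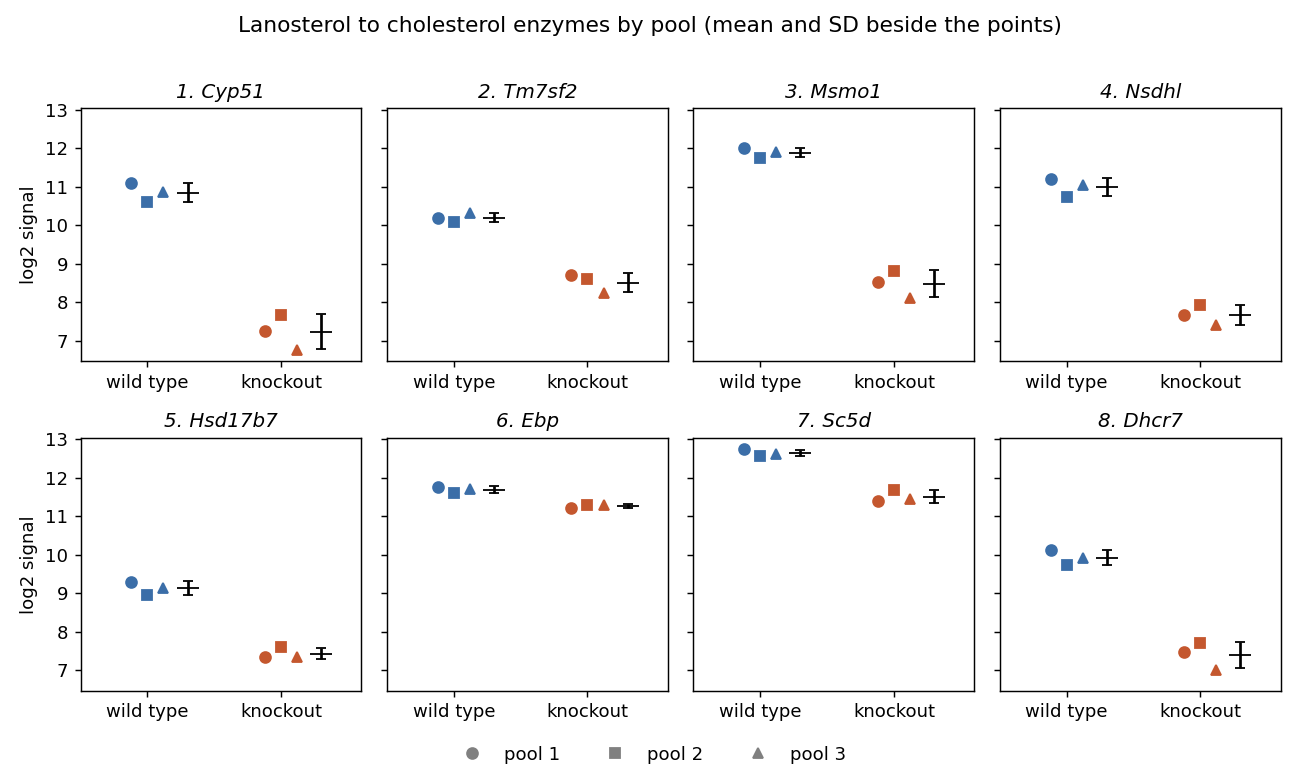
Log2 signal of the probe set that stands for each enzyme, numbered by pathway step, in the 3 wild-type (blue) and 3 knockout (orange) pools. Symbols give the pool number and the bar is mean and SD (n = 3 pools). In all 8 panels the knockout points lie below the wild-type points, with the narrowest gap, 0.29, in Ebp. Signals of different probe sets are not comparable as levels.

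Cyp51, the cytochrome P450 that opens this stretch by taking the first methyl group off lanosterol, fell the most. Log2 signals were 11.08, 10.60 and 10.85 in wild-type pools 1 to 3 and 7.26, 7.67 and 6.76 in knockout pools 1 to 3. The lowest wild-type pool was 2.93 above the highest knockout pool. Its mean log2 signal fell by 3.62 (SE 0.17, limma adjusted p = 1.71e-10), which left 8.16% of the wild-type signal. A second probe set, from 9.01 ± 0.16 to 5.39 ± 0.58 (SD, n = 3 pools), gave -3.61 (SE 0.20), and the knockout pools were detected there too. Another, dimmer one was called Present in 2 wild-type pools and in no knockout pool and was not tested. Its wild-type mean was 12.1-fold above the mean of knockout signals that were not called Present.

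Tm7sf2, a reductase of the ring double bond that Cyp51 leaves behind, read 10.18, 10.08 and 10.32 in wild type and 8.69, 8.59 and 8.23 in knockout. It fell by 1.69 (SE 0.11, limma adjusted p = 1.81e-08), a 3.22-fold difference, and the groups were 1.39 apart. Unlike the other 7 enzymes, it was highest among wild-type pools in pool 3. Lbr, the lamin B receptor of the nuclear envelope, has the same reductase activity. It read 9.09, 8.82 and 8.94 against 8.63, 8.57 and 8.33 and fell by 0.44 (SE 0.10, limma adjusted p = 0.0160). This call was lost with median centring (adjusted p = 0.0513), without wild-type pool 1 (0.125) or pool 3 (0.0549) and without the intensity trend (0.134). Taken within arrays, the fold change of Tm7sf2 minus that of Lbr was -1.25 (SE 0.10), and the groups did not overlap (exact two-sided permutation p = 0.1, the smallest that 3 pools against 3 can give, and 0.2 adjusted over this and the comparison of Ebp with Ebpl).

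The next 3 enzymes work as a complex that strips the paired methyl groups at another ring carbon. Msmo1, the oxidase that starts each round, read 12, 11.76 and 11.91 in wild type and 8.53, 8.80 and 8.11 in knockout. It fell by 3.41 (SE 0.12, limma adjusted p = 8.32e-12). Nsdhl, the dehydrogenase that releases the oxidised carbon, read 11.21, 10.74 and 11.04 against 7.68, 7.91 and 7.39 and fell by 3.34 (SE 0.13, limma adjusted p = 1.23e-11). These were 10.6-fold and 10.1-fold differences, with 9.43% and 9.90% of the wild-type signal left, and their groups were 2.96 and 2.83 apart. A dim second probe set of Msmo1 was Present in 3 wild-type pools and in no knockout pool. It read 5.24 ± 0.22 in wild type and 3.94 ± 1.40 in knockout (SD, n = 3 pools) and did not pass (limma adjusted p = 0.115). Its wild-type mean was 2.46-fold above the mean of knockout signals that were not called Present.

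Hsd17b7, the ketoreductase that ends each round, read 9.30, 8.95 and 9.15 in wild type and 7.35, 7.60 and 7.35 in knockout. It fell by 1.70 (SE 0.11, limma adjusted p = 2.05e-08), which left 30.8% of the signal. Taken within arrays, the fold change of Msmo1 minus that of Hsd17b7 was -1.70 (SE 0.15), and that of Nsdhl minus Hsd17b7 -1.64 (SE 0.10), both without overlap of the groups. An _x_at probe set gave -1.70, and another gave -1.78, both called. The dimmest read 4.10, 4.09 and 4.2 against 2.84, 3.68 and 3.40 and did not pass (limma adjusted p = 0.172). Erg28, known in yeast as the scaffold that holds this complex together, fell by 1.36 (SE 0.10, limma adjusted p = 1.73e-07), from 9.94 ± 0.23 to 8.58 ± 0.08 (SD, n = 3 pools).

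Ebp, the isomerase that shifts the remaining ring double bond, changed least. It read 11.76, 11.59 and 11.71 in wild type and 11.20, 11.30 and 11.29 in knockout. The fall of 0.42 (SE 0.06, limma adjusted p = 0.000280) left 74.6% of the signal, and the groups were 0.29 apart. It lost its call when the intensity trend was left out of the variance estimate (adjusted p = 0.0670). Ebpl, a protein related to Ebp, read 11.73 ± 0.06 and 11.45 ± 0.01 (SD, n = 3 pools) and fell by 0.27 (SE 0.06, limma adjusted p = 0.00586), which was likewise lost without the trend (0.159). The fold change of Ebp minus that of Ebpl was -0.15 (SE 0.09, exact permutation p = 0.3), with overlapping groups.

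Sc5d, the desaturase that adds a further double bond to the ring, read 12.74, 12.58 and 12.62 in wild type and 11.39, 11.69 and 11.44 in knockout. It fell by 1.13 (SE 0.07, limma adjusted p = 1.40e-08). Its other probe sets gave -1.07 (SE 0.10) and -1.06 (SE 0.12) and were called too. About 2-fold less transcript was thus read by all 3, with 45.5% to 48.0% left. Dhcr7, the reductase that then removes the neighbouring ring double bond, read 10.12, 9.73 and 9.91 against 7.47, 7.69 and 7.01. It fell by 2.53 (SE 0.14, limma adjusted p = 2.84e-09), to 17.3% of the wild-type signal, with groups 2.04 apart.

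In size, the falls made an uneven series along the pathway. Of the 28 pairs of enzymes, 25 had within-array differences that did not overlap between genotypes. The exact two-sided permutation p was 0.1 for each of these, the smallest possible, and 0.112 after Benjamini-Hochberg adjustment over the 28 pairs, so no pair could pass 0.05. The share without overlap over other gene pairs was not computed, and the 28 pairs reuse 8 genes on the same arrays. For 4 of the enzymes 1 probe set was measured, so probe response and size of fall cannot be told apart there. The overlapping pairs were Cyp51 minus Msmo1 (-0.21, SE 0.09), Msmo1 minus Nsdhl (-0.07, SE 0.09) and Tm7sf2 minus Hsd17b7 (0.01, SE 0.17). The groups of Cyp51 and Nsdhl did not overlap (-0.28, SE 0.11). Cyp51, Msmo1 and Nsdhl had the largest falls of the 8, followed by Dhcr7, then by Hsd17b7 and Tm7sf2, then by Sc5d and last by Ebp. With the probe sets of a gene averaged, the dim one included, Msmo1 gave -2.35 and came after Dhcr7 (-2.53). Between the probe sets of 1 gene that were Present on all 6 arrays, fold changes spread by 0.00 in Cyp51, 0.08 in Hsd17b7 and 0.08 in Sc5d.

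**Figure D2:**
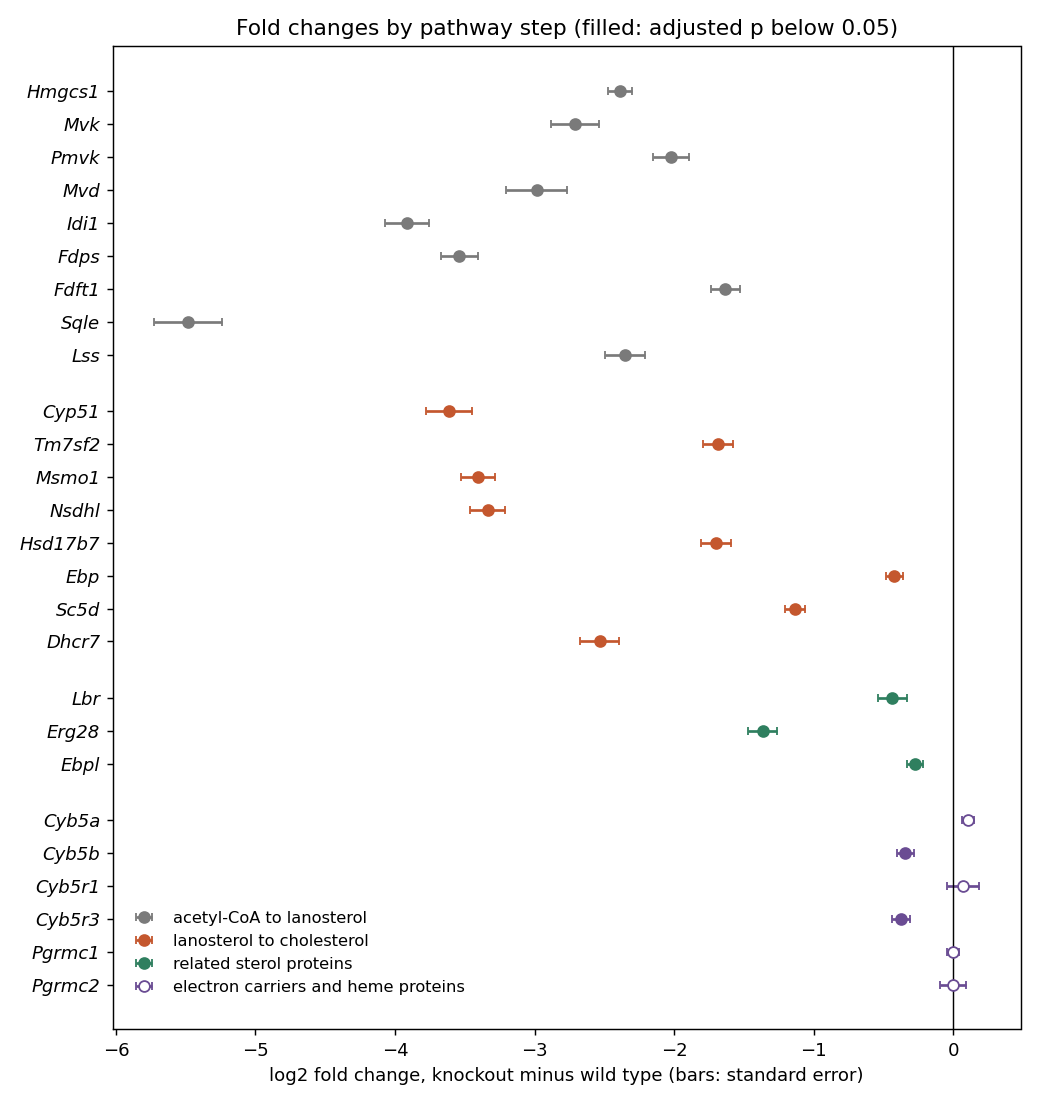
Log2 fold change, knockout minus wild type, with its standard error (limma, 3 pools per genotype), for enzymes from acetyl-CoA to lanosterol (grey), the 8 enzymes from lanosterol to cholesterol (orange), related sterol proteins (green) and electron carriers (purple). Filled points have an adjusted p below 0.05. The 8 enzymes range from -3.62 in Cyp51 to -0.42 in Ebp.

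Upstream of lanosterol, 9 of 9 measured enzymes fell, with log2 fold changes from -5.48 in Sqle, squalene epoxidase, to -1.63 in Fdft1, squalene synthase, and a median of -2.71. Idi1, an isomerase of the isoprene units, gave -3.91 and Lss, the cyclase that makes lanosterol, gave -2.35. Sqle and Idi1 had lower values than Cyp51, and among the 8 later enzymes Sc5d and Ebp had values closer to 0 than Fdft1; these differences between stretches were not tested.

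Cyp51, Msmo1 and Sc5d need electrons from carrier proteins. Por, which serves Cyp51, was not analysed here. Of the 6 carriers and heme-binding partners tested, 2 fell and 0 rose. Cyb5b, the cytochrome b5 of the outer mitochondrial membrane, read 11.43, 11.31 and 11.36 in wild type and 10.99, 11.04 and 11.04 in knockout and fell by 0.34 (SE 0.06, limma adjusted p = 0.00179). Cyb5r3, the reductase that charges cytochrome b5, read 11.40, 11.30 and 11.38 against 10.95, 11.08 and 10.93 and fell by 0.37 (SE 0.06, limma adjusted p = 0.00132). Neither call held without the intensity trend (adjusted p = 0.0974 and 0.0909). Cyb5a, the cytochrome b5 of the endoplasmic reticulum, gave 0.11 (adjusted p = 0.182), which passed with median centring (0.0212). Cyb5r1 gave 0.07, and Pgrmc1 and Pgrmc2, heme-binding membrane proteins, each gave -0.00. Cyb5r2 was detected on no array.

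Of 7 genes of the SREBP machinery, 3 fell and 2 rose. Srebf2 fell by 1.07 (SE 0.13), the SREBP escort Scap by 0.37 (SE 0.07) and Insig1, which retains Scap, by 0.76 (SE 0.11), while Srebf1 and Insig2 gave 0.44 and 0.73. The fall of Scap did not pass when its probe sets were averaged (adjusted p = 0.190). Without the intensity trend Scap (0.0814), Insig1 (0.0524) and Srebf1 (0.131) did not pass.

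Within a genotype the enzymes also varied together from pool to pool. Wild-type pool 2 was the lowest wild-type pool for 8 of 8 enzymes, against 34.3% of all tested genes, and wild-type pool 1 the highest for 7 of 8, against 30.6%. Among the knockout pools, pool 2 was the highest for 7 of 8, against 28.1%, and pool 3 the lowest for 5 of 8, against 69.6%, so the low position of knockout pool 3 was shared by most genes. The mean deviation of the 8 enzymes from their genotype mean was 0.13, -0.16 and 0.02 in wild-type pools 1 to 3 and 0.01, 0.22 and -0.24 in knockout pools 1 to 3. Over the 6 arrays, the correlation of these deviations between 2 enzymes ran from -0.07 for Tm7sf2 with Ebp to 0.99 for Cyp51 with Dhcr7, with a median of 0.75 over 28 pairs. The points share arrays and 2 genotype means, so these values describe only these 6 arrays, and no such median was computed over all genes. The sex-linked Xist read 11.04, 9.14 and 11.01 in wild-type pools 1 to 3 and 11.14, 10.03 and 9.04 in knockout pools 1 to 3. It was thus lowest in wild-type pool 2 and knockout pool 3, and highest in pool 1 of each genotype. The part of sex in the variation between pools was not tested.

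**Figure D3:**
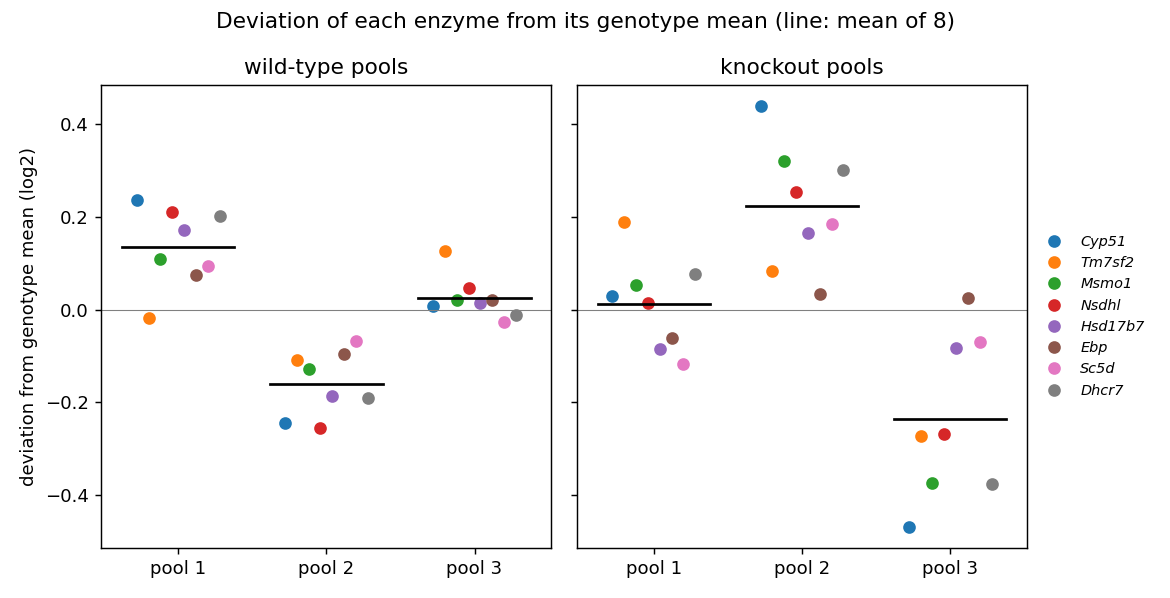
Deviation of each enzyme's log2 signal from its mean in that genotype, by pool, with a line at the mean of the 8 enzymes. Wild-type pool 2 lies below 0 for all 8 enzymes and knockout pool 2 above 0 for all 8, and the SD over pools was larger in knockout than in wild type for all of the enzymes except Hsd17b7 and Ebp.

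The genes most like the 8 enzymes over the 6 arrays, by Pearson correlation with their mean among 7552 other genes with a linear signal of at least 100 in either genotype, were Idi1 (r = 0.9995), Pclaf (r = 0.999), Fdps (r = 0.999), Sqle (r = 0.999) and Mvk (r = 0.997). Over the 6 arrays this measure includes the genotype difference. Of these, 4 are upstream enzymes, and Pclaf encodes a factor that binds the DNA clamp PCNA and fell by 1.5 (SE 0.12). For the deviations within genotype the closest were Baz2b, Tmem135, Nek6, Mtrex and Mrpl42, with r from 0.994 to 0.998. None of those 5 was called between the genotypes, with log2 fold changes from -0.07 to 0.12. They are the highest of 7552 values, each from 6 deviations. Whether unrelated genes would reach such r was not tested.

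Nsdhl and Ebp lie on the X chromosome and Hsd17b7 on chromosome 1, as does Dbi. The Y-linked Eif2s3y was called Absent in knockout pool 1, at 1.16, and read 6.97 to 8.69 in the other pools. Nsdhl in knockout pool 1, at 7.68, lay between the other 2 knockout pools, while Ebp was lowest in that pool, at 11.20 against 11.30 and 11.29. Without this pool the log2 fold change was -3.34 for Nsdhl and -0.39 for Ebp, both called. Hsd17b7 is 180 tested genes from Dbi in the RefSeq order of GRCm38.p6. Among the 5 tested genes on each side of it, 2 of 10 fell and 2 rose, against 3.87% and 3.29% of all tested genes. The kinetochore gene Nuf2 gave -1.71, 3110045C21Rik -2.45, and the G-protein regulators Rgs5 and Rgs4 0.35 and 0.75. Of these, 3110045C21Rik was called Present in wild-type pools only and passed the detection filter through them.

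Because the 8 genes moved together, the 250 bases before each start in RefSeq (GRCm38.p6) were searched on both strands for 4 motifs. The first, TCACNCCAC, is a core of the sterol regulatory element that SREBP binds. The second, CCAAT, is the site of NF-Y. The others were GGGCGG, the site of Sp1 factors, and the E-box CACGTG, and no motif contains another. The 8 genes have 10 such windows, 3 of them for Dhcr7. CCAAT was present in a window of 8 of 8 genes, against 3592 of 8878 tested genes. By window it was in 80.0% of the 10, against 35.0% of 11394 windows of tested genes and 33.8% of all 32851. Dhcr7 held it only in window 3 of its 3, and a gene with more windows has more chances of a match. GGGCGG was in 8 of 8 genes, against 5598 of 8878 tested genes. It was in 90.0% of windows, against 56.2% for tested genes and 32.7% for all. CACGTG was in 30.0% of windows (Hsd17b7, Sc5d and Dhcr7), against 8.29% for tested genes and 6.02% for all. TCACNCCAC was in none of the 10, against 1.05% for tested genes and 1.05% for all, which says only that these letters are not in these windows. For the upstream enzymes, with 8 windows of 7 genes, the shares were 75.0% for CCAAT, 75.0% for GGGCGG, 0 for CACGTG and 12.5% for TCACNCCAC, so the first pair of motifs was about as frequent there. A match is a description and no measured binding.

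The windows of the enzyme that fell most, of the one that heads the methyl-stripping complex and of the one that fell least are shown here 5′ to 3′ on the gene's strand, with the NF-Y and Sp1 motifs, read on either strand, in capitals. The Cyp51 and Ebp windows hold 1 Sp1 motif each and Msmo1 holds 2. The NF-Y motif occurs 1 time before Cyp51, 3 times before Msmo1 and 2 times before Ebp.
Cyp51, chr5:4104698-4104947, minus strand: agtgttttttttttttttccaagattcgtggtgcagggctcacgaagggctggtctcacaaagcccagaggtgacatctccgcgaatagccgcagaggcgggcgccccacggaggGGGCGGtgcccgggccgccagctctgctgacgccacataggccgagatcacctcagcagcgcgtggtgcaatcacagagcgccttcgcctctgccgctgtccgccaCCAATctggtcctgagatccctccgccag
Msmo1, chr8:64733579-64733828, minus strand: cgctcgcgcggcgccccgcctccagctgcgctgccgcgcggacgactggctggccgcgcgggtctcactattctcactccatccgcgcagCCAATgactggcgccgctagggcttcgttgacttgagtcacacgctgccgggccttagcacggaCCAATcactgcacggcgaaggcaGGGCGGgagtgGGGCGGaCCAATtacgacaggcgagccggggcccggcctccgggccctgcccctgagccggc
Ebp, chrX:8193513-8193762, minus strand: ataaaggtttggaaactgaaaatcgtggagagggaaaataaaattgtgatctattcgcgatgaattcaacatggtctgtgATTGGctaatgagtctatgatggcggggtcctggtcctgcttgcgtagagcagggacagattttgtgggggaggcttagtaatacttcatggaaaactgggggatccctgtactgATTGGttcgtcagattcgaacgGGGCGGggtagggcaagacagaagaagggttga

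For 3 of the 8 enzymes, Nsdhl, Hsd17b7 and Dhcr7, the next tested gene on the side of the start is listed on the opposite strand, so that the genes are read away from each other. Such neighbours were looked at after the value of 3110045C21Rik had been seen. 3110045C21Rik, which lies beside Hsd17b7, read 5.98, 5.78 and 5.88 in wild type and 2.93, 3.81 and 3.53 in knockout, where it was called Present in 0 of 3 pools. Its wild-type mean was 5.48-fold above that of these undetected signals (limma adjusted p = 2.54e-06), while Hsd17b7 was 3.25-fold higher. This neighbour passed the detection filter only through its wild-type calls, so its call is no independent support.

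Cetn2, which encodes the centriole protein centrin and lies beside Nsdhl, read 7.57, 7.47 and 7.31 against 6.92, 6.89 and 6.54. It fell by 0.67 (SE 0.12, limma adjusted p = 0.00291), lost without the intensity trend (0.0606), and its second probe set fell by 0.49. Nadsyn1, the NAD synthetase beside Dhcr7, read 7.98 ± 0.02 and 8.05 ± 0.21 (SD, n = 3 pools) and was not called (adjusted p = 0.812). Of these 3 neighbours 2 were called lower, against 3.87% of tested genes, but 3110045C21Rik is the gene that prompted the look, and without it the count is 1 of 2.

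Of the start-side neighbours of the other 5 enzymes, Fzd1, Klhl2 and Tbcel are on the same strand as the enzyme gene and the strand of Vps51 and Porcn is not listed, so whether these are read away from it is not known here. Of these 5, 0 fell, and Porcn, the acyltransferase of Wnt proteins, which lies beside Ebp, gave 0.61 (adjusted p = 0.0206). That call was lost without knockout pool 1 (0.0962), without wild-type pool 1 (0.0952) or pool 2 (0.0554), without the detection filter (0.0691) and without the trend (0.101). Fzd1, Vps51, Klhl2 and Tbcel gave 0.06, 0.20, 0.05 and 0.12 and were not called. The RefSeq span of Vps51 overlaps that of Tm7sf2, and those of Hsd17b7 and 3110045C21Rik and of Nsdhl and Cetn2 do not overlap.

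The bases between the listed starts of the 2 pairs that fell together are given on the strand of the enzyme gene, with the NF-Y, Sp1 and E-box motifs, read on either strand, in capitals. The 203 bases before Hsd17b7 hold 3 NF-Y motifs, 2 Sp1 motifs and 1 E-box, and the 176 before Nsdhl hold 2 NF-Y motifs and 1 Sp1 motif.
Hsd17b7 to 3110045C21Rik, chr1:169969206-169969408, minus strand: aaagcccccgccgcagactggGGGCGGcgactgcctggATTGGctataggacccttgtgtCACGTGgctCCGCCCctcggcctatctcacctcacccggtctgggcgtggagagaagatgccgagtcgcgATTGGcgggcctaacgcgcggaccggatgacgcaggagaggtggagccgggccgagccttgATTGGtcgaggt
Nsdhl to Cetn2, chrX:72918345-72918520, plus strand: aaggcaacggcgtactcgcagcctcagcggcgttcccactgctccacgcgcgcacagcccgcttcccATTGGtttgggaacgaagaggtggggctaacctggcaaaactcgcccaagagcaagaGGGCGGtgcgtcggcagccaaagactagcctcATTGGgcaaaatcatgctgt

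**Figure D4:**
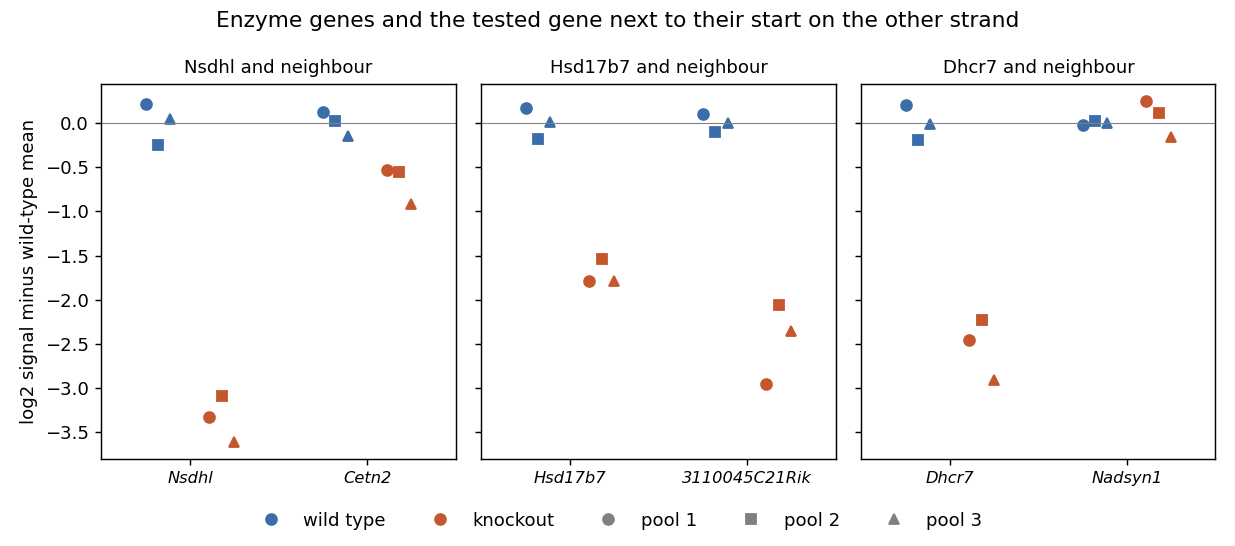
Log2 signal minus the wild-type mean for 3 enzyme genes and the tested gene next to their start on the opposite strand, by pool (blue wild type, orange knockout, symbols for the pool number). Knockout points of 3110045C21Rik and Cetn2 lie below their wild-type points, while those of Nadsyn1 lie on both sides.

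In the authors' deposited table, all 16 probe sets are marked as lower in knockout. Their absolute fold changes run there from 1.34 in Ebp to 12.3 in Cyp51, and the authors' corrected p from 0.0933 in Nsdhl to 0.695 in the dim Msmo1 probe set. None of the 16 was among the 22 probe sets (0.0488%) that passed a corrected p of 0.05 in the authors' deposited table. By limma, 13 of the 15 tested here were called lower, against 3.0% of 22482 tested probe sets. These counts are not like for like. The authors' table covers 45101 probe sets, while limma used trended variance on those that passed the detection filter. Without the trend, limma called 378 probe sets in all, against 1277 with it.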

How the data were processed

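Affymetrix signals of 6 liver RNA pools were used as deposited. Per the file headers and the submitters' processing notes, the authors made log2 signals with MAS5, with a detection call and a detection p-value per probe set and array and the count of probe pairs used, which was not needed here. No source used here gives the MAS5 settings. The deposited table also holds the authors' p-value, corrected p-value and absolute fold change (a ratio). The deposited log2 series matrix differed from it by at most 4.91e-07.

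Without the 64 control probe sets, 22482 were Present on at least 3 of 6 arrays. They were tested with limma 3.58.1 in R 4.3.3, using eBayes with trended variance, and called at a Benjamini-Hochberg adjusted p below 0.05 over all of them. No pseudocount was needed, since the values were already log2. Fold changes are knockout minus wild type, with moderated standard errors, and the fit was tested on simulated data. The brightest tested probe set stood for a gene, with _x_at last, giving 10908 genes. Where no knockout pool was called Present, the fold took each knockout array's own signal or its lowest Present signal, whichever is higher. Such a fold is a ratio of means and sets no limit from the spread between pools. Within-array differences used exact permutation (SciPy 1.17.1). The number of arrays limits the precision. Symbols came from the platform annotation, where 34958 probe sets have 1 symbol, 932 several and 9211 none, and the RefSeq table of GRCm38.p6 changed 0 of the 34754 it matched. All 8 enzymes matched the RefSeq promoter table.

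Members and lists were chosen with earlier results of these data known. Named genes were all enzyme probe sets, Dbi, the fixed lists of upstream, related, carrier and SREBP genes, sex-linked genes, markers and the 5 genes most alike by each correlation. Start-side neighbours and those of Hsd17b7 were added later. Some listed genes, Acat2, Faxdc2 and Por among them, were not analysed here. The fit was repeated with quantile normalization, with median centring, with a pseudocount of 16, without the trend, without the filter, with only probe sets Present on 6 arrays, with averaged probe sets per gene, with Xist as a covariate, without each pool in turn and with the pool number as a block. Same-numbered pools did not deviate together, with correlations of -0.03, -0.01 and -0.08.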

Additional observations from a re-analysis of the deposited data

How the results depend on the processing

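The 8 enzymes were each refitted under 15 alternatives, which share most of their data. Direction and call were kept in 119 of these 120 values. The exception was Ebp without the intensity trend, a refit that left 7 of 8 called. Over all refits, Cyp51 ran from -3.83 to -3.38, Msmo1 from -3.57 to -2.35, Nsdhl from -3.46 to -3.20, Dhcr7 from -2.68 to -2.34, Hsd17b7 from -1.79 to -1.50, Tm7sf2 from -1.78 to -1.55, Sc5d from -1.23 to -1.08 and Ebp from -0.47 to -0.36. The value of -2.35 for Msmo1 averaged its bright probe set with the dim one. The total of called probe sets was 378 without the intensity trend, with 268 lower, and ran from 639 to 3010 with a pool left out, with 374 to 955 lower; the cause was not tested. With the pool number as a replicate block, 1370 probe sets, 724 lower, were called, and all 8 enzymes and 9 upstream enzymes. Between 25 and 26 of the enzyme pairs did not overlap with a pool left out. Median centring moved the median of all genes from 0.02 to 0.07. Genes near 0 that were never called changed sign: Pgrmc2 read 0.0329 with the Xist covariate, 0.0315 with averaged probe sets, 0.0589 with median centring and -0.0616 to 0.0618 with a pool left out. Pgrmc1 read 0.0564 with median centring and -0.0145 to 0.0066 with a pool left out, Mbtps1 -0.0046 with quantile normalization and -0.0773 to 0.0824, and Mbtps2 0.0302 with median centring and -0.0557 to 0.0175. Dim probe sets limit what can be read of the second Msmo1 and the fourth Hsd17b7 probe set.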
